A study of Mus musculus with 27 samples.

Results

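Gene expression in the fetal brain of Cav1-null mice was compared with that of C57BL/6J mice on gestational day (d) 17, across all genes of the read-count table. The comparison took the 3 libraries of each strain whose labels give this day, 6 of the 27 libraries of the series, and 20358 of the 55416 genes in the table had enough reads to be tested. The other libraries came from the same 2 strains on d12 and d15 and from AKR/J mice on the 3 days, and they enter here only where they put a d17 value in context. All fetuses were female by label, and the whole brain of each was dissected from snap-frozen fetuses, with the day of the vaginal plug counted as day 1. C57BL/6J is an inbred strain that the study uses as a long-lived strain. Cav1-null is the short name of the congenic strain B6.Cg-Cav1tm1Mls/J, a germline knockout of Cav1 bred onto the C57BL/6J background. Both strains came from the Jackson Laboratory, no treatment was given, and the mice mated were about 8 weeks of age. The labels do not say whether the 3 fetuses of a group came from separate litters, so p-values measure only the spread between these samples.

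Cav1 encodes caveolin-1, the membrane protein that, with the cavins, shapes caveolae, the small flask-like pits of the plasma membrane. In the brain caveolin-1 is known above all from endothelial cells, pericytes and smooth muscle of blood vessels, and also from glia, where it takes part in vesicle transport, lipid handling and the clustering of signalling receptors. Several of the genes met below are retrocopies, that is copies of a messenger RNA that were reverse transcribed and inserted elsewhere in the genome. A retrocopy differs so little from its parent gene that a read can match both, and how reads with several matches were counted is not given in the sources used here.

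The reads counted on genes numbered 29700746 to 30915744 in the C57BL/6J libraries and 27068027 to 29035087 in the Cav1-null libraries, so that each C57BL/6J library was deeper than each Cav1-null library. Over the whole series they ranged from 26363697 to 39759702. Levels are given as CPM, the count of a gene scaled to the library's total of reads on genes, and log2 fold changes are Cav1-null over C57BL/6J. The sex labels were checked on Xist, the RNA that coats the inactive X chromosome, which had 2376, 5940 and 3206 CPM in the C57BL/6J libraries and 5573, 4674 and 5012 CPM in the Cav1-null libraries. The Y-linked genes Kdm5d, Uty, Ddx3y and Eif2s3y had between 0 and 4 reads in each of the 6 libraries.

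The 3 C57BL/6J libraries were less alike than the 3 Cav1-null libraries. The biological coefficient of variation, which is the spread of a gene between replicates relative to its level, was 27.1% within C57BL/6J, 11.8% within Cav1-null and 11.5% within AKR/J on d17. C57BL/6J replicate 1 stood farthest from the rest. Of 12488 genes with a mean of at least 5 CPM, it had 556 more than 2-fold above the range of the 3 Cav1-null libraries and 297 more than 2-fold below it. The same counts were 9 and 5 in replicate 2 and 36 and 7 in replicate 3. On log2(CPM + 1) over the tested genes, replicate 2 correlated with the Cav1-null libraries at 0.992 to 0.994, as high as these did among themselves, and with C57BL/6J replicate 1 at 0.968. Genes are not independent replicates, so these correlations are a description.

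The C57BL/6J libraries also differed from each other in which strain-marker genes were read. These genes were defined without any C57BL/6J library and without the Cav1-null libraries of d17, by a rule chosen after the values had been seen. They had at least 1 CPM in all 9 AKR/J libraries and, in the Cav1-null libraries of d12 and d15, under 10% of the lowest AKR/J level, and Cav1 itself was left out. There were 69 such genes, on 20 chromosomes, and 59 of them are annotated as pseudogenes. A library was counted as reading a gene from 10% of the AKR/J mean. By that measure C57BL/6J replicates 1, 2 and 3 of d17 read 35, 18 and 28 of the 69 genes, and each Cav1-null library of d17 read 0. Of the 69 genes, 24 were read in none of the 3 C57BL/6J libraries, 17 in 1 library, 20 in 2 libraries and 8 in all 3, so that 53.6% of them divided the replicates of this strain. Where a gene was read, its level had a median of 43.4% of the AKR/J d17 mean, with quartiles of 37.1% and 60.1% over 81 values.

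Single genes showed how the replicates divided. Gm3375 had 28.4, 0.10 and 0.17 CPM in C57BL/6J replicates 1, 2 and 3. Gm6969 had 0.19, 30.5 and 0.10 CPM, and Rpl3-ps1 had 0.42, 0.77 and 14.9 CPM. Each of these 3 genes was high in a different library. Hmga1b, a copy of the gene of a chromatin protein, was read in replicates 1 and 3 at 14.7 and 12.2 CPM and had 0.13 CPM in replicate 2. These genes were picked for their pattern after their values were seen. A splice junction of Nnt, the mitochondrial transhydrogenase that is known for a deletion in C57BL/6J, had 0 reads in the 9 AKR/J libraries. This junction, at chr13:119509128-119518211 on GRCm39, had 11, 6 and 10 reads in the Cav1-null libraries of d17 and 2, 5 and 2 reads in the C57BL/6J libraries. On d15 the C57BL/6J libraries had 0, 4 and 3 reads and the Cav1-null libraries 6, 18 and 14, in the same direction as on d17. On d12 the C57BL/6J libraries had 14, 20 and 7 reads and the Cav1-null libraries 9, 11 and 17, so the strains were not apart there. A 0 in the junction table can stand for reads that the authors removed. The genotype of the fetuses was not tested, and every value of the C57BL/6J group below comes from these 3 libraries. A difference at the copies and pseudogenes described below is therefore one between the libraries labelled C57BL/6J and Cav1-null, and whether it holds between the strains was not tested.

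**Figure D1:**
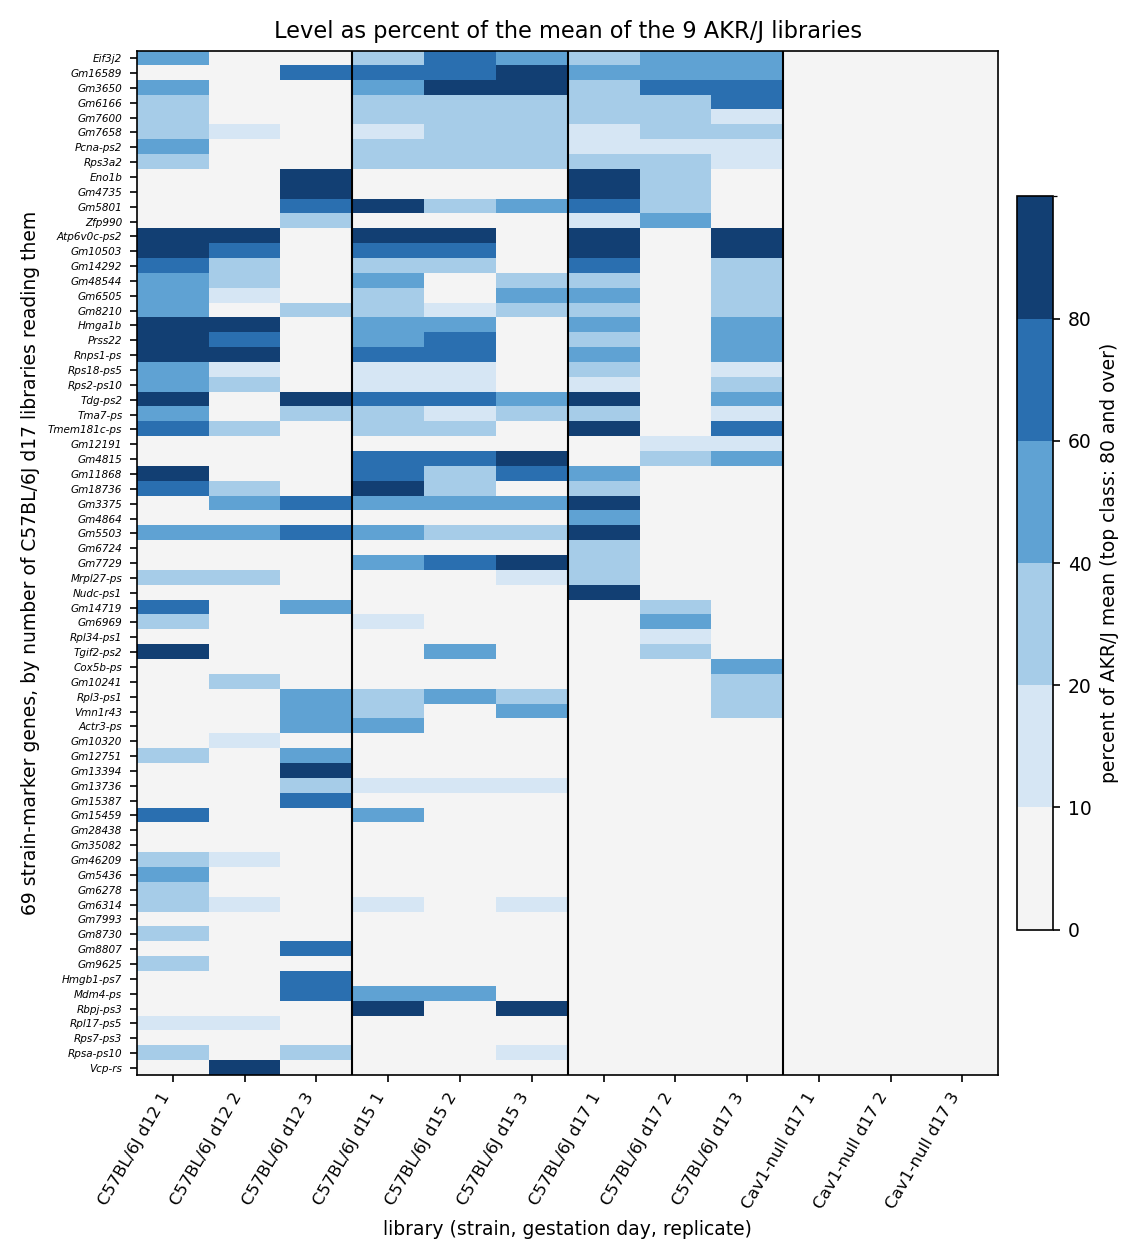
Level of the 69 strain-marker genes (rows) in the 9 C57BL/6J libraries and the 3 Cav1-null libraries of d17 (columns), as percent of the mean of the 9 AKR/J libraries, in 6 classes. The 3 C57BL/6J libraries of d17 read 35, 18 and 28 of the genes in differing combinations, and the Cav1-null columns stay in the lowest class.

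In the test across all genes, 10 genes (0.0491% of those tested) differed between the strains at an adjusted p under 0.05, of which 1 was higher and 9 were lower in Cav1-null mice (0.0442%). The lower genes were Cav1 itself, 5 processed retrocopies (Rps3a2, Gm6166, Pcna-ps2, Rpl34-ps1 and Gm16589), the copy gene Eif3j2 and the pseudogenes Gm3650 and Alms1-ps2. The gene that was higher was Gm15581, a long noncoding RNA that overlaps Cav1 on the opposite strand. The test was edgeR's quasi-likelihood test on the 6 libraries, with p-values adjusted by Benjamini and Hochberg over all 20358 genes. At an unadjusted p under 0.05 there were 1538 genes (7.55%), 482 higher (2.37%) and 1056 lower in Cav1-null mice. The CPM of the groups did not overlap for 2417 genes (11.9%), 1166 of them higher in Cav1-null mice (5.73%). The median log2 fold change over all tested genes was -0.00236.

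**Figure D2:**
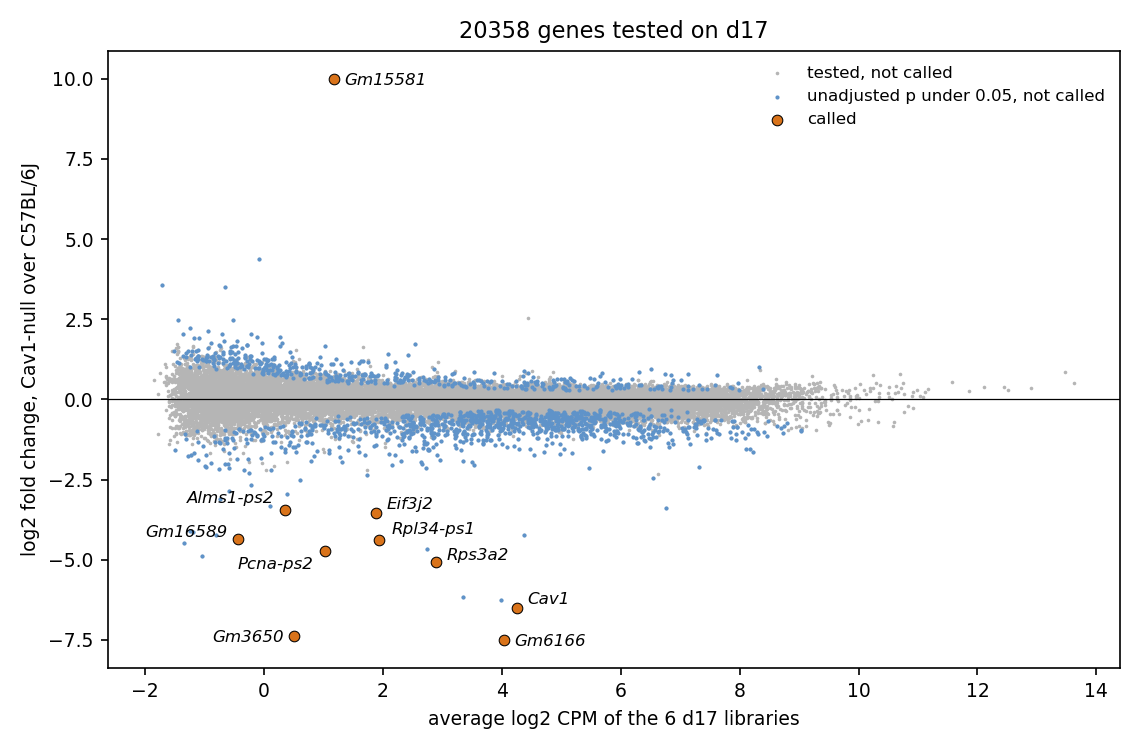
Each of the 20358 tested genes by its average log2 CPM in the 6 libraries (x axis) and its log2 fold change of Cav1-null over C57BL/6J (y axis). The 10 called genes are labelled, and 9 of them lie below 0, at -3.44 to -7.49.

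Cav1 was nearly absent from the Cav1-null brain. It had 31.9, 36.8 and 43.0 CPM in C57BL/6J replicates 1, 2 and 3 and 0.278, 0.406 and 0.551 CPM in the Cav1-null libraries. These values stand for 985, 1092 and 1288 reads against 8, 11 and 16 reads. The groups were far apart, with means of 37.2 ± 5.58 and 0.412 ± 0.137 CPM (SD, n = 3), a 90.3-fold difference. The log2 fold change was -6.51 ± 0.25 (SE) with an adjusted p of 5.48e-05, the smallest of all genes tested, and AKR/J had 29.9 to 33.0 CPM on d17. Of the splice junctions within Cav1, the junction at chr6:17306479-17307879 had 47, 48 and 51 reads in C57BL/6J and 2, 0 and 2 reads in Cav1-null mice. The next junction, at chr6:17308045-17339111, had 0, 0 and 110 reads in C57BL/6J and 1, 4 and 0 reads in Cav1-null mice. Since a 0 can stand for removed reads, the 0 of C57BL/6J replicates 1 and 2 is not taken as an absence. The few reads left on Cav1 were not assigned to a transcript.

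Gm15581 lies at chr6:17206822-17385603 on the minus strand of GRCm39, and Cav1 lies within its span, at chr6:17306140-17341451 on the plus strand. It had 0 reads in each of the 3 C57BL/6J libraries and 4.35, 3.36 and 5.55 CPM in the Cav1-null libraries. A count of 0 allows up to 3 reads, which is 0.101 CPM in the shallowest of these libraries, so Gm15581 was at least 43.7-fold higher in Cav1-null mice (adjusted p = 0.0105). The call was lost in 4 of the 6 fits that left out a library, with adjusted p up to 0.0879. The Cav1-null libraries of the other days also read it, from 2.12 CPM upwards on d12 and at 2.79 to 5.75 CPM on d15. In AKR/J on d17 it had 0, 0 and 0.0694 CPM. Whether strand was used in counting is not given in the sources used here, so reads from Gm15581, from Cav1 and from other transcripts of the region cannot be told apart where they overlap. Among these transcripts are Cav2, at chr6:17281026-17289877, which lies within the span of Gm15581, and D830026I12Rik, at chr6:17197589-17210206, which overlaps its end.

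A congenic strain carries DNA of the donor strain on both sides of the targeted gene, and 19 other tested genes lay within 2 Mb of Cav1. Of these, Gm15581 was the 1 gene called, 4 genes (21.1%, against 7.55% of all genes tested) had an unadjusted p under 0.05. Another count, of genes whose groups did not overlap, also came to 4, all higher in Cav1-null mice, where 5.73% of all genes tested were higher without overlap. The median log2 fold change of the 19 genes was 0.30. D830026I12Rik, a noncoding RNA 95.9 kb from Cav1 that overlaps Gm15581, came closest to the threshold. It had 0.065, 0.135 and 0.067 CPM in C57BL/6J and 0.973, 1.07 and 1.14 CPM in Cav1-null mice, with a log2 fold change of 3.50 ± 0.46 and an adjusted p of 0.080. Gm4876, a noncoding RNA 134 kb away, had 1.88, 4.71 and 3.11 CPM in C57BL/6J and 6.15, 6.13 and 6.03 CPM in Cav1-null mice, without overlap (log2 fold change 0.91 ± 0.29, adjusted p = 0.575).

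Cav2, the gene of caveolin-2 and the nearest coding neighbour at 16.3 kb, had 10.1, 26.5 and 16.0 CPM in C57BL/6J and 33.3, 22.4 and 29.8 CPM in Cav1-null mice. The groups overlapped, and the log2 fold change was 0.70 ± 0.30 with an adjusted p of 0.575. On d15 Cav2 was called higher (1.45, adjusted p = 0.000135 by edgeR), in a comparison that called 58.6% of genes. Since Cav2 lies within the span of Gm15581, how many of its reads stem from Gm15581 was not tested. Among other coding neighbours, Tes, which encodes a focal adhesion protein, had a log2 fold change of -0.02 ± 0.13, and that of St7 was -0.00264 ± 0.121. Met, the receptor of hepatocyte growth factor, had 26.8, 14.6 and 15.6 CPM in C57BL/6J and 12.1, 6.61 and 15.5 CPM in Cav1-null mice, with overlap. Foxp2, the transcription factor of striatal and cortical neurons, had 113.8, 138.5 and 132.8 CPM against 139.2, 176.7 and 142.1 CPM, without overlap (0.22 ± 0.14, adjusted p = 0.580). The share of genes with an unadjusted p under 0.05 was 17.1% of 35 genes within 5 Mb, 14.5% of 62 within 10 Mb, 13.3% of 173 within 20 Mb and 8.53% of 387 within 50 Mb, and the widest window was near the 7.55% of all genes.

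**Figure D3:**
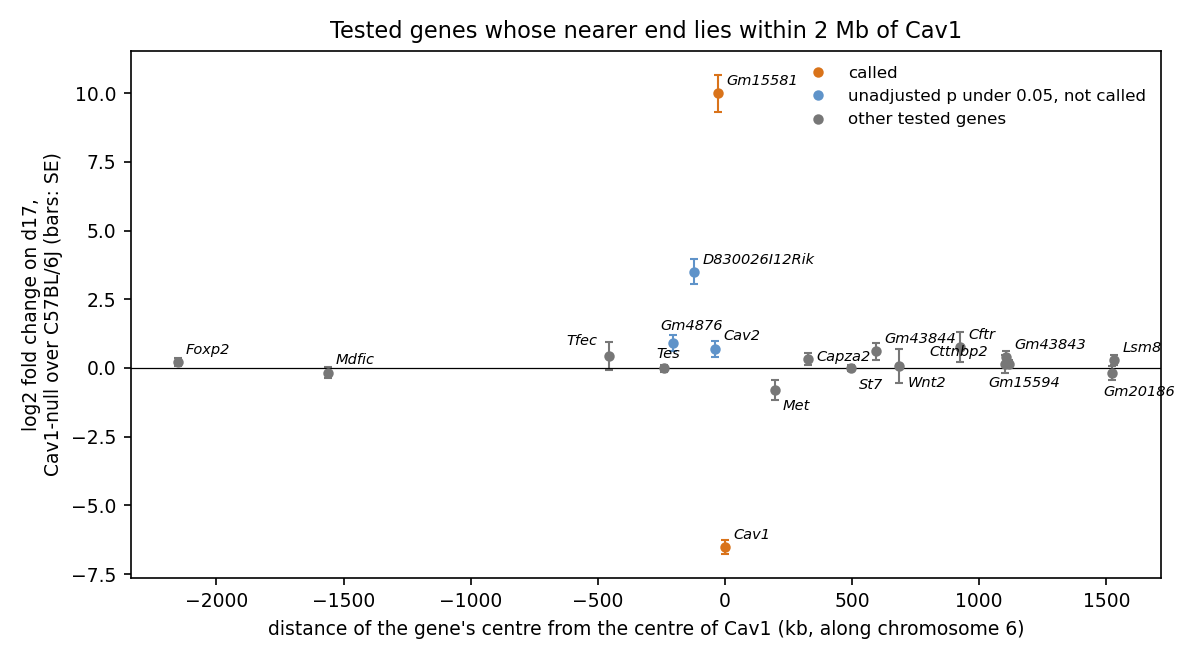
Log2 fold change on d17 (y axis, bars are SE) of Cav1 and the 19 other tested genes whose nearer end lies within 2 Mb, by the distance in kb between the centres of the gene and of Cav1 (x axis). Gm15581 stands highest, D830026I12Rik lies at 3.50 and Cav1 at -6.51, and the other 17 genes lie closer to 0.

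The other called genes were the 5 retrocopies, the copy gene Eif3j2 and the unprocessed pseudogenes Gm3650 and Alms1-ps2, and all were lower in Cav1-null mice. Stretches of the 4 retrocopies with the most reads are shown beside their parents, since the reads that tell a copy from its parent are those that cover the capital letters. Each stretch is 120 bases, written 5′ to 3′ in the sense of the parent's coding sequence, and was read from GRCm39. Capitals mark the bases at which copy and parent differ. The Rps3a2 stretch is chr14:88360597-88360716 on the minus strand, opposite coding bases 529 to 648 of Rps3a1.
Rps3a2: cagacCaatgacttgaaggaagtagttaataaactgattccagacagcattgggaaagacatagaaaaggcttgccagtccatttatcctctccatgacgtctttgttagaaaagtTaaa
Rps3a1: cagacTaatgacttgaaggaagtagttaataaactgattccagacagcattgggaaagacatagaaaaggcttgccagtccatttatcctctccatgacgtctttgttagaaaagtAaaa
The Pcna-ps2 stretch is chr19:9261322-9261441 on the plus strand, opposite coding bases 580 to 699 of Pcna.
Pcna-ps2: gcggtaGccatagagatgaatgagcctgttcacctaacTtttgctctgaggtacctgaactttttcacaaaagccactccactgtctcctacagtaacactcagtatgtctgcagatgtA
Pcna: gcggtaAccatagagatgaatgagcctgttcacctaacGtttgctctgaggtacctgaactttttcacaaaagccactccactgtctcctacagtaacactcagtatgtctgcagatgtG
The Rpl34-ps1 stretch is chr6:71101665-71101784 on the plus strand, opposite coding bases 72 to 191 of Rpl34.
Rpl34-ps1: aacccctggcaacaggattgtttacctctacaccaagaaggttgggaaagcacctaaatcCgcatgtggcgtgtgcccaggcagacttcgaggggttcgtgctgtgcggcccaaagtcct
Rpl34: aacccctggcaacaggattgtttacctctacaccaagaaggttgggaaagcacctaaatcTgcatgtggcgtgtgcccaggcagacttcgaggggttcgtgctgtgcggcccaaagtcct
The Gm6166 stretch is chr9:57391506-57391625 on the plus strand, opposite coding bases 259 to 378 of Fabp5.
Gm6166: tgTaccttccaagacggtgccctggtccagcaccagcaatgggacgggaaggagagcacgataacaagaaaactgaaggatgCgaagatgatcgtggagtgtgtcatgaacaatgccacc
Fabp5: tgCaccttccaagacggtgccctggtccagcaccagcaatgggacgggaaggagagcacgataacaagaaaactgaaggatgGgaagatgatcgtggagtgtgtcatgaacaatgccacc

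Over their whole aligned length the copies were nearly identical to the parents' coding sequences. Rps3a2, a copy of the gene of a small ribosomal subunit protein, differed from Rps3a1 by 4 substitutions in 792 bases (99.49% identity), and 36.4% of its windows of 150 bases, the length of a sequenced read, held no difference at all. Counted from the first coding base, with the parent's base named first, these were T216C, T534C, A645T and T668C. Rpl34-ps1 differed from Rpl34, which encodes a large ribosomal subunit protein, by 2 substitutions in 354 bases (99.44%), T132C and C318G, with 17.6% of windows identical. Pcna-ps2 differed from Pcna, the gene of the sliding clamp of replication, by 6 substitutions in 781 bases (99.23%), with 17.2% of windows identical. Gm6166 differed from Fabp5, the gene of a fatty acid binding protein of progenitors and glia, by 5 substitutions and 2 gap bases (98.29%), with 11.5% of windows identical. Gm16589, a transcribed copy of Aida, had 7 substitutions in 918 bases (99.24%) and 21.8% of windows identical. A window stands for a single read, and the other read of a pair was not considered, so these are not shares of read pairs that match both genes.

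Rps3a2 had 13.9, 16.3 and 12.1 CPM in C57BL/6J and 0.35, 0.37 and 0.55 CPM in Cav1-null mice (log2 fold change -5.07 ± 0.26, adjusted p = 0.000253). Gm6166 had 17.7, 25.96 and 53.0 CPM against 0.07, 0.18 and 0.28 CPM (-7.49 ± 0.57, adjusted p = 0.00426), and among the called genes it was the most variable within C57BL/6J. Pcna-ps2 had 3.43, 3.64 and 4.21 CPM against 0.24, 0.11 and 0.07 CPM (-4.72 ± 0.41, adjusted p = 0.00782). In each case the lowest C57BL/6J library lay above all 3 Cav1-null libraries. Rpl34-ps1 had 4.27, 11.4 and 5.84 CPM against 0.42, 0.22 and 0.38 CPM (-4.38 ± 0.44, adjusted p = 0.0139). Eif3j2, a copy of the translation initiation factor gene Eif3j1 that is annotated as protein coding, had 5.69, 7.78 and 6.41 CPM against 0.63, 0.37 and 0.72 CPM (-3.54 ± 0.29, adjusted p = 0.00600). Gm3650, an unprocessed pseudogene that lies next to Eif3j2 on chromosome 18, had 240 reads over the 3 C57BL/6J libraries and 1 read over the 3 Cav1-null libraries. Scaled to depth that is a ratio of 225, with a counting interval of 39.98 to 8919 (95%, exact) that covers counting error only (adjusted p = 0.0105). Alms1-ps2, next to the ciliary gene Alms1, had a mean of 2.16 ± 0.18 CPM in C57BL/6J and 0.20 ± 0.05 CPM in Cav1-null mice (SD, n = 3). For Gm16589 the means were 1.25 ± 0.08 and 0.06 ± 0.04 CPM, and the adjusted p was 0.0174 for Alms1-ps2 and 0.0356 for Gm16589. Of the 6 fits that left out a library, the call was lost in 5 for Gm16589 (adjusted p up to 0.349) and in 4 each for Alms1-ps2, Gm3650 and Rpl34-ps1. It was lost in 3 for Eif3j2 and Pcna-ps2 and in 2 for Gm6166, and Rps3a2 was called in all 6.

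**Figure D4:**
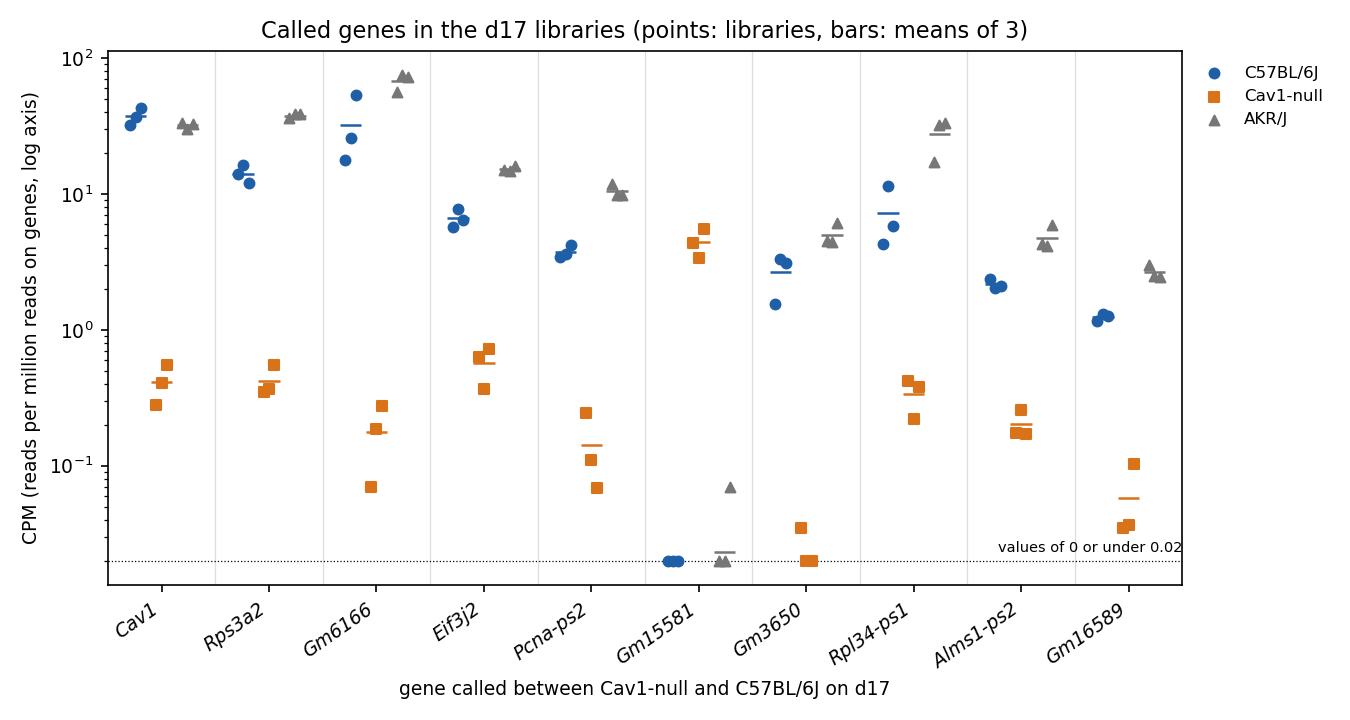
CPM on a log axis of the 10 called genes in the 9 libraries of d17, with a point for each library and a bar at the mean of each strain. Cav1-null lies under the other strains for 9 genes, and at the 8 copies and pseudogenes AKR/J lies above the mean of C57BL/6J.

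The C57BL/6J level of these copies lay between those of the other strains. The C57BL/6J mean of d17 was 37.5% of the AKR/J mean for Rps3a2, and over the 8 copies and pseudogenes it lay between 26% and 53.1%. For Cav1 it was 117%. Of the 8 genes, 7 are strain-marker genes by the rule above, and Alms1-ps2 is not. The rule did not use the 6 libraries compared here, but it required near absence in Cav1-null libraries of d12 and d15, so this overlap is not separate support. Of the 69 marker genes, 20 had enough reads to be tested on d17. Of the 37 read in 1 or 2 C57BL/6J libraries, 5 were tested, and 6 of the 7 called were read in all 3. On d15, 9 of the 10 called genes were tested, and all 9 were called in the same direction in a comparison where 11621 of 19827 genes (58.6%) were called. On d12, where 0 of 19475 genes (0%) were called by edgeR and 4309 had an unadjusted p under 0.05, the C57BL/6J libraries were divided. Rps3a2 had 13.6 CPM in replicate 1 of that day and 0.29 and 0.39 CPM in replicates 2 and 3, and Eif3j2 had 6.77, 0.29 and 0.43 CPM. Rpl34-ps1 had 0.28, 0.14 and 0.26 CPM in C57BL/6J on d12 and 0.71, 0.61 and 0.33 CPM in Cav1-null mice, so the order of the strains was the other way round.

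At the parent genes the Cav1-null mean was higher, and none of them was called. Rpl34 had 128.6, 311.9 and 197.6 CPM in C57BL/6J and 509.2, 340.6 and 445.4 CPM in Cav1-null mice (log2 fold change 1.02 ± 0.28, adjusted p = 0.575). Eif3j1 had 22.9, 31.6 and 27.1 CPM against 41.5, 39.8 and 41.4 CPM (0.57 ± 0.13, adjusted p = 0.575), and Fabp5 had 168.3, 255.6 and 190.5 CPM against 297.2, 276.2 and 317.5 CPM (0.52 ± 0.16, adjusted p = 0.575). The groups did not overlap for these 3 genes. They overlapped for Rps3a1, with 199.6, 506.7 and 372.4 CPM against 598.5, 449.2 and 540.7 CPM (0.56 ± 0.28, adjusted p = 0.575), and for Pcna (0.20 ± 0.15), Aida (0.31 ± 0.14) and Alms1 (0.15 ± 0.16). Because copy and parent share reads, the counts of both are uncertain by the share that the counting moved between them, which was not tested.

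Between the threshold and an adjusted p of 0.4 lay a group of named genes whose libraries did not overlap. They are described here after their values were seen. Dlx6os1, a noncoding RNA of the Dlx5 and Dlx6 locus that is transcribed in forebrain GABAergic progenitors and neurons, had 56.7, 67.6 and 60.3 CPM in C57BL/6J and 119.5, 133.0 and 110.6 CPM in Cav1-null mice (log2 fold change 0.95 ± 0.13, adjusted p = 0.103). Of the coding genes of the locus, Dlx6 had 8.35, 5.42 and 9.18 CPM against 9.46, 14.2 and 9.95 CPM (0.51 ± 0.27), and Dlx5 had a log2 fold change of -0.13 ± 0.39. Btaf1, the regulator that removes TATA-binding protein from DNA, had 65.1, 93.1 and 75.7 CPM against 136.0, 132.7 and 146.3 CPM (0.81 ± 0.14, adjusted p = 0.314). Ide, the insulin-degrading enzyme, which also cleaves amyloid beta, had 61.2, 48.8 and 56.4 CPM against 102.5, 104.3 and 101.5 CPM (0.85 ± 0.15, adjusted p = 0.368). Ide had 44.5 to 49.7 CPM in AKR/J on d17. Ide is also in the list of genes known to vary between laboratory strains, of which 20 were tested. In that list 2 genes were higher and 1 lower at an unadjusted p under 0.05 (15%, against 7.55% of all genes tested). Whether the difference at Ide comes from such variation between stocks was not tested. Kcna3, a voltage-gated potassium channel, had 15.3, 17.2 and 13.6 CPM against 27.2, 26.9 and 29.5 CPM (0.83 ± 0.14, adjusted p = 0.314), and the interferon-induced Gbp3 had 1.88, 2.02 and 1.67 CPM against 4.59, 4.51 and 3.96 CPM (1.199 ± 0.22, adjusted p = 0.368).

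On the lower side of the same range were Pla2g4e, a phospholipase, Car12, a carbonic anhydrase, and Dmrt3, a transcription factor of the cortical hem and of spinal interneurons. Pla2g4e had 28.5, 44.2 and 41.3 CPM in C57BL/6J and 18.7, 21.9 and 21.3 CPM in Cav1-null mice (log2 fold change -0.90 ± 0.16, adjusted p = 0.368). Car12 had 9.61, 11.4 and 7.55 CPM against 4.69, 4.396 and 4.31 CPM (-1.12 ± 0.20, adjusted p = 0.368). Dmrt3 was low in both strains, at 1.49, 0.88 and 1.40 CPM against 0.21, 0.30 and 0.28 CPM (-2.30 ± 0.42, adjusted p = 0.368). Beyond this range, the giant cadherin Fat1 had 191.1, 206.0 and 142.7 CPM against 102.2, 106.2 and 97.1 CPM (-0.85 ± 0.17, adjusted p = 0.562). The groups did not overlap for any of these 4 genes. Gm7600, at an adjusted p of 0.080, is a strain-marker gene like the called copies, with 2.23, 2.59 and 1.64 CPM against 0.24, 0.41 and 0.21 CPM (-2.93 ± 0.39).

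Of the 15 genes listed for caveolae and their partners, 14 were tested, 1 was called (Cav1), and 6 others had an unadjusted p under 0.05, Cav2 on the higher side and 5 on the lower side. With Cav1 these were 50% of the list, against 7.55% of all genes tested. The median log2 fold change of the 14 was -0.40, and -0.24 without C57BL/6J replicate 1. Cavin1, which encodes the coat protein without which caveolae do not form, had 37.9, 9.66 and 24.2 CPM in C57BL/6J and 9.18, 8.76 and 9.16 CPM in Cav1-null mice (log2 fold change -1.47 ± 0.44, adjusted p = 0.575). The groups did not overlap, but replicate 2 of C57BL/6J was close to the Cav1-null level. Pacsin2, which bends membranes, had 27.2, 22.4 and 23.6 CPM against 19.4, 16.3 and 16.2 CPM (-0.53 ± 0.17), and Ehd4, an ATPase of endocytic membranes, had 8.18, 4.88 and 8.91 CPM against 4.55, 3.55 and 4.37 CPM (-0.86 ± 0.28). Ror1, a receptor known to hold caveolin-1 and cavin-1 together, had 3.75, 2.29 and 2.003 CPM against 1.95, 1.55 and 0.93 CPM (-0.91 ± 0.39). Cavin2, Cavin3 and Cavin4 had log2 fold changes of -0.11, 0.14 and 0.24. Cav3, the muscle caveolin, had too few reads to be tested.

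The gene lists for cell types, regions and pathways were described by counts and medians. Of 45 lists, 38 had a negative and 7 a positive median, and the caveolin list was the 1 list with a called gene in the test on 6 libraries. Most of these medians moved with C57BL/6J replicate 1: without this library 40 of the 45 medians came closer to 0 and 9 changed sign. Without replicate 2 instead, 7 medians came closer to 0, and 288 of the 987 list genes tested (29.2%) were called, where 2865 of 20991 genes (13.6%) were called in all. Without replicate 3, 21 medians came closer to 0. Counts of members at an unadjusted p under 0.05 are given with their share of the list, beside 7.55% over all genes tested, where lower genes also outnumbered higher ones (1056 against 482). In a whole brain, fewer cells of a type and less RNA per cell cannot be told apart.

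Lists of vessels and coverings of the brain had medians below 0. Of 28 endothelial genes, 10 (35.7%) had an unadjusted p under 0.05, all lower in Cav1-null mice, and the median log2 fold change was -0.58. Without C57BL/6J replicate 1 it was -0.21. The summed level of the list was 668.8, 349.7 and 430.8 CPM in C57BL/6J and 338.1, 344.5 and 316.1 CPM in Cav1-null mice, and C57BL/6J replicate 2 lay close to the Cav1-null level. The members with the highest level were Slco1c1, the thyroid hormone transporter of brain vessels, with 38.3, 38.3 and 42.0 CPM against 33.9, 38.5 and 40.6 CPM, and Ly6e, with 49.0, 27.9 and 38.0 CPM against 29.2, 34.99 and 31.1 CPM. Abcb1a, the efflux pump of the barrier, had 11.2, 6.46 and 9.31 CPM against 5.18, 4.99 and 3.93 CPM, without overlap (log2 fold change -0.98 ± 0.27, adjusted p = 0.575). The tight junction gene Ocln had 8.70, 7.58 and 9.41 CPM against 6.50, 5.87 and 6.03 CPM (-0.51 ± 0.19).

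Of 14 genes of pericytes and smooth muscle, 8 had an unadjusted p under 0.05 on the lower side and 1, Higd1b, on the higher side (64.3% in all). Their median was -0.64, and -0.23 without C57BL/6J replicate 1. Rgs5, the pericyte gene with the highest level, had 90.1, 168.5 and 129.5 CPM against 171.3, 146.2 and 154.8 CPM, which overlapped, and Higd1b had 2.94, 5.39 and 3.71 CPM against 7.96, 7.24 and 6.68 CPM. Vtn, which encodes vitronectin, had 44.0, 12.0 and 28.1 CPM against 10.8, 10.1 and 9.44 CPM (-1.53 ± 0.43, adjusted p = 0.575). The summed levels of meningeal and of connective tissue genes were highest in C57BL/6J replicate 1. Ptgds, the meningeal prostaglandin D synthase, did not set this library apart, with 155.7, 105.9 and 156.4 CPM in C57BL/6J and 143.2, 34.8 and 86.5 CPM in Cav1-null mice. Col1a1, the chain of collagen I, had 514.2, 9.23 and 27.5 CPM in C57BL/6J and 30.7, 11.3 and 14.6 CPM in Cav1-null mice, and 5.23 to 11.4 CPM in AKR/J. The 17 meningeal genes summed to 1292, 274.8 and 416.7 CPM against 395.5, 172.7 and 241.4 CPM, with 9 members (52.9%) at an unadjusted p under 0.05, all lower, and a median of -0.83, or -0.33 without replicate 1. The 17 genes tested of connective tissue, cartilage and bone had a median of -0.29, which was 0.02 without replicate 1 and -0.58 without replicate 3.

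In the choroid plexus list the 3 C57BL/6J libraries were close to each other and all above the Cav1-null libraries. Its 17 genes summed to 739.9, 709.7 and 713.8 CPM in C57BL/6J and 433.2, 505.0 and 464.7 CPM in Cav1-null mice. The median log2 fold change was -0.54, and it stayed between -0.51 and -0.68 when a C57BL/6J library was left out. Of the 17 genes, 7 (41.2%) had an unadjusted p under 0.05, all lower, and 6 had groups without overlap (11.9% of all genes tested), but none was called. Without C57BL/6J replicate 2, 7 of the 17 were called, 6 lower and 1 higher, where 13.6% of all genes were called. Ttr, the thyroid hormone carrier made by this epithelium, had 566.3, 532.2 and 547.5 CPM against 298.2, 371.7 and 334.4 CPM (-0.75 ± 0.15, adjusted p = 0.575), and Enpp2, the gene of autotaxin, had 45.9, 33.0 and 45.1 CPM against 29.9, 32.0 and 25.97 CPM (-0.54 ± 0.19). Ttr makes up most of the sum. Folr1, the folate receptor of the plexus, had 6.05, 4.68 and 5.28 CPM against 2.40, 3.66 and 2.96 CPM (-0.87 ± 0.25), and Cldn1, a claudin of its tight junctions, had 7.601, 6.70 and 7.68 CPM against 3.79, 4.25 and 4.72 CPM (-0.82 ± 0.20). In AKR/J on d17, Ttr had 485.6 to 539.0 CPM.

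Glial and progenitor genes had negative medians that shrank without C57BL/6J replicate 1. Of 20 astrocyte genes, 10 (50%) had an unadjusted p under 0.05, all lower, with a median of -0.59, or -0.31 without that library. Fgfr3, the receptor of astrocyte precursors, had the closest replicates, with 59.0, 55.1 and 52.5 CPM against 36.5, 38.0 and 38.8 CPM (-0.59 ± 0.13, adjusted p = 0.575). Sparcl1, a secreted synapse-promoting protein, had 336.5, 194.9 and 336.3 CPM against 182.5, 212.2 and 162.5 CPM, and Apoe, the lipid carrier, had 266.3, 149.0 and 269.4 CPM against 143.2, 172.4 and 142.7 CPM. For both, replicate 2 of C57BL/6J lay within or below the Cav1-null range. Of 17 genes of the oligodendrocyte lineage, 4 (23.5%) had an unadjusted p under 0.05, all lower, with a median of -0.35, or -0.23 without that library. Sox10, the transcription factor of this lineage, had 12.4, 8.22 and 8.85 CPM against 4.69, 5.80 and 5.13 CPM, and Pdgfra, the receptor of its precursors, had 71.8, 45.7 and 52.5 CPM against 44.7, 39.3 and 40.3 CPM. Neither gene's groups overlapped. Of 22 radial glia and progenitor genes, 8 (36.4%) were at an unadjusted p under 0.05, all lower, with a median of -0.49, or -0.31 without that library. Fabp7, a fatty acid binding protein of radial glia, had 457.0, 1240 and 786.1 CPM against 1162, 819.7 and 1044 CPM, and Ptprz1 had 609.6, 450.7 and 444.4 CPM against 453.4, 392.6 and 439.7 CPM. Both overlapped. The 20 genes of microglia and macrophages had a median of -0.15, with 6 of them above 0.

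Neuronal lists had medians between -0.31 and 0.21, and those of the GABAergic interneuron, glutamate receptor and voltage-gated channel lists turned positive without C57BL/6J replicate 1. Of 21 genes of projection neuron layers, 4 (19%) had an unadjusted p under 0.05, all lower, with a median of -0.31, or -0.09 without replicate 1. Neurod6 had 191.8, 245.9 and 266.1 CPM against 255.1, 223.2 and 351.4 CPM. The 24 GABAergic interneuron genes had a median of -0.16, with 2 members higher and 2 lower at an unadjusted p under 0.05 (16.7% in all). Of the pair of genes of the enzymes that make GABA, Gad1 overlapped (-0.08 ± 0.22), and Gad2 had 108.1, 127.5 and 123.4 CPM against 161.9, 187.9 and 137.5 CPM, without overlap (0.41 ± 0.15, adjusted p = 0.575). The 20 genes of GABA receptors and chloride transport had a median of 0.21, or 0.10 without replicate 1, with 15 above 0 and Gabrb2 at 81.0, 89.0 and 84.1 CPM against 103.8, 124.3 and 114.1 CPM (0.40 ± 0.13, adjusted p = 0.575). The 23 glutamate receptor genes had a median of -0.28, the 29 of synaptic vesicles -0.30, the 23 of the postsynaptic scaffold -0.26 and the 25 voltage-gated channels -0.07. Without replicate 1 the medians of synaptic vesicles and of the postsynaptic scaffold came to -0.07 and -0.07.

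Regional lists were led by the hindbrain and cerebellum. Of 21 genes tested, 7 (33.3%) had an unadjusted p under 0.05, all lower, 20 had a negative value, and the median was -0.70, or -0.57 to -0.69 with a C57BL/6J library left out. Pax2, which marks the midbrain-hindbrain boundary and cerebellar interneurons, had 8.67, 10.5 and 9.55 CPM against 6.43, 4.32 and 3.41 CPM (-1.04 ± 0.25, adjusted p = 0.575). Ebf2 had 18.6, 16.1 and 16.3 CPM against 11.7, 13.0 and 11.0 CPM (-0.55 ± 0.17), and En1, a homeobox gene of the same boundary, had 13.3, 7.10 and 10.2 CPM against 4.76, 6.50 and 6.75 CPM (-0.81 ± 0.29). The groups were apart for all 3 genes. The members with the highest level, Zic1 and Cbln1, overlapped, with 236.2, 184.3 and 232.9 CPM against 169.3, 215.6 and 176.0 CPM for Zic1. The 18 forebrain genes had a median of -0.46, which was -0.13 without replicate 1, and the 21 genes of hypothalamus and neuropeptides had a median of -0.06, which was 0.03 without it.

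**Figure D5:**
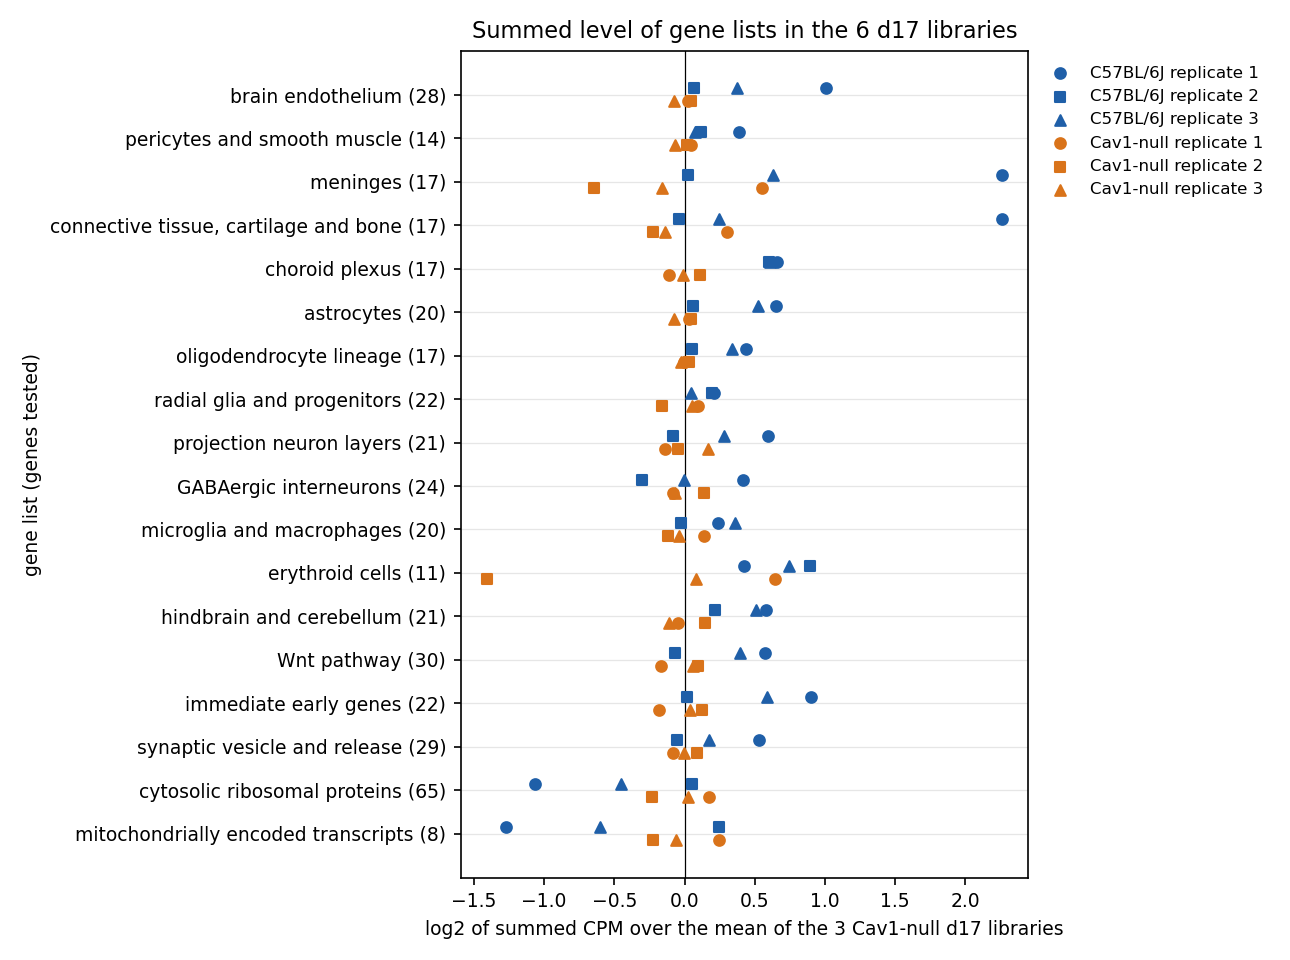
Summed CPM of the members of 18 gene lists in each of the 6 d17 libraries, as log2 of the ratio to the mean of the 3 Cav1-null libraries (x axis), with the number of genes tested in brackets. C57BL/6J replicate 1 (blue circles) is farthest from 0 in most lists, and in the choroid plexus list all 3 C57BL/6J libraries lie together above the Cav1-null libraries.

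Among pathway lists, the Wnt pathway, which patterns the dorsal and posterior neural tube, had 13 of 30 genes (43.3%) at an unadjusted p under 0.05, all lower, and a median of -0.58. It was -0.29 without C57BL/6J replicate 1. Lef1, a transcription factor of the pathway, had 15.4, 9.93 and 11.6 CPM against 6.19, 9.38 and 8.09 CPM, and its inhibitor gene Nkd1 had 36.0, 25.2 and 31.6 CPM against 21.7, 19.1 and 23.97 CPM. The central coactivator Ctnnb1 had 607.2, 278.6 and 525.9 CPM against 267.4, 385.6 and 348.0 CPM, with overlap. Axin2, a target gene of the pathway, had 50.2, 44.9 and 44.0 CPM against 40.2, 44.0 and 40.1 CPM (-0.20 ± 0.14). Of 29 genes of the TGF-beta and BMP pathways, 7 (24.1%) had an unadjusted p under 0.05, all lower, with a median of -0.32, or -0.16 without replicate 1. Its receptor gene Tgfbr2 had 22.5, 8.05 and 12.4 CPM against 6.71, 5.43 and 6.51 CPM. The type II BMP receptor gene Bmpr2 differed little, at 199.1, 201.3 and 195.2 CPM against 204.3, 221.7 and 209.1 CPM. The 17 partners of caveolin-1 and of nitric oxide synthesis had a median of -0.16, or -0.06 without replicate 1 and -0.29 without replicate 3, with Nos1 at 61.9, 22.7 and 30.9 CPM against 20.8, 22.4 and 21.5 CPM.

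A few lists had positive medians. Of 65 genes of cytosolic ribosomal proteins, 63 had a positive value and 2, Rpl30 and Rpl34, an unadjusted p under 0.05 (3.08%). The median of this list was 0.37, or 0.17 without C57BL/6J replicate 1 and 0.61 without replicate 2. Their sum was 15210, 32950 and 23180 CPM in C57BL/6J and 35910, 27040 and 32280 CPM in Cav1-null mice, so that replicate 2 of C57BL/6J was inside the Cav1-null range. The 13 listed transcripts of the mitochondrial genome showed the same order of libraries, with sums of 14270, 40890 and 22720 CPM against 40990, 29510 and 33040 CPM. None of the 8 genes tested had an unadjusted p under 0.05. The 26 genes of antigen presentation and interferon response had a median of 0.17, or 0.12 to 0.30 with a C57BL/6J library left out. Of these, 4 were higher and 1 lower at an unadjusted p under 0.05 (19.2% in all), and 8 had a negative value. The members with the highest level overlapped, Ly6e at a log2 fold change of -0.32 ± 0.23 and Irf9 at -0.02 ± 0.13. Isg15, an interferon-induced ubiquitin-like protein, had 1.29, 2.66 and 1.57 CPM against 4.55, 4.58 and 3.55 CPM (1.19 ± 0.29, adjusted p = 0.575), and Irf7, the interferon regulatory factor, had 1.81, 1.38 and 0.87 CPM against 2.29, 4.14 and 2.62 CPM. Both were low but did not overlap.

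Erythroid transcripts were not shared evenly between the libraries. The erythroid list, of which 11 genes were tested, summed to 2339, 3237 and 2920 CPM in C57BL/6J and 2725, 655.3 and 1842 CPM in Cav1-null mice, and to 10240, 3670 and 19400 CPM in AKR/J. The adult globin gene Hbb-bs had 1008, 1709 and 1451 CPM against 1487, 316.7 and 911.6 CPM. Cav1-null replicate 2 was the lowest of all, and without it 3 genes were called and the medians of the AKR/J rising and falling genes described next were 0.10 and -0.26. The 20 genes listed for skeletal muscle summed to 34.0 to 55.0 CPM and the 21 of epidermis and eye to 36.0 to 47.9 CPM in the 6 libraries. The list of connective tissue, cartilage and bone was higher, at 1461, 296.4 and 360.8 CPM in C57BL/6J and 376.0, 260.9 and 276.2 CPM in Cav1-null mice. The keratin gene Krt1 had 10.8 to 14.3 CPM in C57BL/6J and 11.9 to 14.7 CPM in Cav1-null mice.

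Genes that change with age in a strain outside this comparison were used to place the libraries of d17. Between d15 and d17 in AKR/J, 4409 of 19989 genes (22.1%) were called. Of those that rose, 2316 were tested here, and they had a median log2 fold change of 0.11, with 1520 above 0. Of those that fell, 2045 were tested, and they had a median of -0.23, with 1559 below 0. At an unadjusted p under 0.05 there were 87 higher and 52 lower among the rising genes, which is 6% of them and under the 7.55% of all genes tested. Among the falling genes there were 11 higher and 292 lower, which is 14.8% of them. Taken per library, the median of the rising genes less that of the falling genes, on the log2 scale and relative to AKR/J on d15, was 0.97, 1.43 and 1.19 for C57BL/6J, 1.48, 1.41 and 1.40 for Cav1-null and 1.01, 1.27 and 1.38 for AKR/J. C57BL/6J replicate 2 lay within the Cav1-null range and replicates 1 and 3 below it. The median of the falling genes was -0.11 without replicate 1 of C57BL/6J and -0.34 without replicate 2, and that of the rising genes was 0.06 without replicate 1.

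The strain difference of d17 was compared with that of d15 by an interaction term over 12 libraries. On d15 the median of the AKR/J rising genes less that of the falling genes was -0.101, 0.0088 and 0.14 for C57BL/6J and 0.769, 0.768 and 0.842 for Cav1-null. The strains were thus farther apart in these genes than on d17. How much of the d15 calls and of the interaction goes with this gap was not tested. For 54 of 21431 genes (0.252%) the difference between the strains differed between the days, 7 of them with a higher and 47 with a lower value on d17, and 4683 genes had an unadjusted p under 0.05. None of the 10 genes called on d17 was among them. Many of them were predicted gene models, such as Gm34245, which had 0 reads in C57BL/6J on d15 and 76 reads over the 3 Cav1-null libraries, at least 11.4-fold higher over a floor of 3 reads per library. On d17 its log2 fold change was -0.92. Pou4f1, a transcription factor of sensory and habenular neurons, went the other way, with a log2 fold change of -2.12 on d15 and -0.44 on d17. Txnip, a regulator of thioredoxin and glucose uptake, had -1.33 on d15 and -0.11 on d17. Against d12, 1 of 21675 genes (0.00461%) differed, which was Rpl34-ps1, and 864 had an unadjusted p under 0.05.

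Splice junctions gave another readout of the same libraries. Of 55669 junctions, 118 had at least 10 reads in each of the 3 libraries of a strain and 0 in the 3 of the other, 80 in Cav1-null mice and 38 in C57BL/6J. The pattern of each of the 118 was broken by the libraries of d12 and d15. In 99 of them the strain with 0 reads on d17 had at least 10 reads in a library of another day, and in 113 the strain that read the junction on d17 had a library with 0 reads on another day. Over all 9 libraries of each strain, 0 junctions had at least 5 reads in all of 1 strain and 0 reads in the other. A junction of Rps18, at chr17:34174151-34174591, had 3223, 2023 and 2878 reads in Cav1-null mice on d17 and 0 in C57BL/6J, and it had 0, 0 and 4163 reads in Cav1-null mice on d15 and 0, 1863 and 1578 in C57BL/6J. A junction of Tbca, a tubulin folding cofactor, at chr13:94925511-94968867, had 544, 1327 and 832 reads in C57BL/6J on d17 and 0 in Cav1-null mice, and 0, 1311 and 0 in Cav1-null mice on d15. The methods describe a removal of junctions before deposit, and its part in these zeros was not tested.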

How the data were processed

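RNA was purified with poly-T beads, primed with random hexamers and sequenced in paired-end reads of 150 bases. The authors trimmed reads with cutadapt and fastp and mapped them to GRCm39 with STAR. The deposited values are read counts per Ensembl gene without normalization, and read counts per splice junction from multi-sample 2-pass mapping, from which junctions with multi-mapped reads or short overhangs had been removed. The counting tool, its handling of strand and of multi-mapped reads, and the versions are not given in the sources used here. Groups follow the labelled strain and day. Genes were kept by filterByExpr, scaled by TMM and tested with the quasi-likelihood test of edgeR 4.0.16 in R 4.3.3 on the 6 libraries, with a call wherever the Benjamini-Hochberg value lay below 0.05. Standard errors were derived from each fold change and its F statistic. The code was also run on simulated counts with planted changes, at a spread close to that within the Cav1-null libraries. That run does not show how the fit performs at the larger spread of the C57BL/6J libraries. Alternatives were DESeq2 1.42.0, limma 3.58.1, other scalings, filters, models and thresholds, thinning, a block for the replicate number and fits that omit a library in turn. Of 55416 genes, 54749 had a position in the GENCODE annotation of GRCm39. Sequences were read from that genome with Python 3.11.15. Intervals cover counting error only. A few genes are not reported here.

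Genes were named by a rule (label checks, called genes, list members with the highest level, genes near Cav1, interaction and junction leaders), and genes named outside it, such as the list members given for groups without overlap and the genes beyond the threshold, were chosen after their values were seen. The comparison, the gene lists and the rule were chosen with earlier results of these data known.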

Additional observations from a re-analysis of the deposited data

Results flagged for a closer look

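The strain difference differed between d17 and d15 for 54 genes and between d17 and d12 for 1 gene, by the interaction test of edgeR. As given above, the strains were also farther apart on d15 than on d17 in the AKR/J rising and falling genes. Among the negative fitted differences of log2 fold changes (d17 minus d15) were those of Gm34245 (-8.73), 2900064K03Rik (-7.90), Gm16151 (-6.46) and Gm37537 (-4.82), all gene models without a known role. On d15 the C57BL/6J libraries had 0 reads of the first pair of genes and 1 read of Gm16151, so that these fitted sizes depend on the prior count and set no order. With a floor of 3 reads per library, Gm34245 was at least 11.4-fold and 2900064K03Rik at least 6.25-fold higher in Cav1-null mice on d15. Among the positive ones were those of Gm13736 (8.30, likewise dependent on the prior count, with 0, 0 and 0.03 CPM in C57BL/6J on d17), a retrocopy and strain-marker gene, Pou4f1 (1.62), Txnip (1.16) and Thsd7a (1.01). Rpl34-ps1 differed by -5.56 between d17 and d12. Of the erythroid genes, Hbb-bs differed by -3.14 and Hbb-bt by -2.95 between d17 and d15, and both were named after their values were seen. Hbb-bs had 353.5, 254.2 and 303.0 CPM in C57BL/6J and 1636, 2054 and 1983 CPM in Cav1-null mice on d15. The globin genes mark red blood cells, and how much blood each brain held was not tested.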

How the results depend on the processing

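The count of 10 called genes stayed within 1.5 times under RLE size factors, library sizes alone, upper quartile, the 27-library model, thinning and a minimum absolute log2 change of 1, but with 27 libraries 4 of the 10 genes lost their call (Eif3j2, Pcna-ps2, Gm16589 and Alms1-ps2). It was 48 with DESeq2, 55 with the likelihood ratio test, 5035 with limma voom and quality weights, 30 without a filter, 2 with at least 10 reads in every library (which removes Cav1 by construction), 5 in the model of 18 libraries (of the 10, Cav1, Rpl34-ps1 and Gm15581 stayed called and 7 did not) and 3 with the replicate block (Cav1, Rps3a2 and Gm6166). The share of called genes that were higher, 10%, was 0% with at least 10 reads, 60% with 18 libraries and 0% with the replicate block. With a library left out the count ranged from 2 (without Cav1-null replicate 3) to 2865 (without C57BL/6J replicate 2, all 10 genes among them), with 16 and 3 without C57BL/6J replicates 1 and 3 and 4 and 3 without Cav1-null replicates 1 and 2. Cav1 and Rps3a2 were called in all 6 of these fits, but Rps3a2 was not in the model of 18 libraries (adjusted p = 0.142 by edgeR). The share ranged from 0% to 27.2%. The 54 interaction genes became 1436 with DESeq2, 1010 without a filter, 4 with 27 libraries and 0 with the replicate block, and 0 (without Cav1-null replicate 3) to 5792 (without C57BL/6J replicate 1) with a library left out. The median of the AKR/J falling genes was -0.343 for AKR/J changes past an absolute log2 of 1 and -0.341 to -0.114 with a library left out. Deviations of same-numbered libraries correlated at r = -0.297, -0.265 and 0.0964, and those of unlike-numbered libraries at -0.0905 to 0.333. With 3 libraries per strain these values cannot decide whether the replicate numbers pair the samples. Junction counts were 134, 96 and 118 under the other thresholds. The strain-marker settings, added after seeing the data, left 50% to 55.1% of 53 to 81 genes read in 1 or 2 C57BL/6J libraries. The cause of these shifts was not tested.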

Other observations

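Of the gene groups not described above, the 32 cell cycle and replication genes had a median log2 fold change of -0.23, or -0.38 without C57BL/6J replicate 2. Of these, 3 members (9.38%) had an unadjusted p under 0.05, all lower in Cav1-null mice, against 7.55% of all genes tested. Mki67, the proliferation marker, had 88.2, 69.4 and 75.8 CPM in C57BL/6J and 74.6, 71.3 and 71.6 CPM in Cav1-null mice. Of 22 immediate early genes, which respond to neuronal activity and to handling of tissue, 4 (18.2%) had an unadjusted p under 0.05, all lower, with a median of -0.62, or -0.28 without C57BL/6J replicate 1. The 23 genes of the whole list summed to 392.2, 212.9 and 315.6 CPM in C57BL/6J and 185.6, 229.1 and 216.2 CPM in Cav1-null mice. Nr4a3 had 57.9, 29.4 and 41.2 CPM against 21.6, 24.5 and 29.8 CPM. Of 36 longevity and Alzheimer disease genes, 6 (16.7%) had an unadjusted p under 0.05, all lower, with a median of -0.36 that was -0.09 without C57BL/6J replicate 1. Mapt, which encodes tau, had 2238, 862.9 and 1558 CPM against 816.9, 1134 and 1011 CPM, with overlap.

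Lists close to 0 were the 33 RNA-binding splicing regulators (median -0.03), the 16 histone genes (0.00107) and the 15 DNA methylation enzymes and readers (-0.04). In the last list Tdg, the thymine DNA glycosylase that takes part in demethylation, had 27.6, 60.3 and 52.5 CPM in C57BL/6J and 61.7, 74.1 and 78.8 CPM in Cav1-null mice, without overlap (0.60 ± 0.24, adjusted p = 0.575 by edgeR). Its retrocopy Tdg-ps2, a strain-marker gene, had 20.7, 0 and 11.3 CPM in C57BL/6J, so that the libraries with the lower Tdg counts were those with the higher counts on the copy. The 30 imprinted genes tested had a median of -0.12, or -0.01 without replicate 1, and Meg3, the maternally expressed noncoding RNA, had 4420, 9813 and 6016 CPM against 8882, 9651 and 7493 CPM, with overlap.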
